A study of Gallus gallus with 6 samples.

Results

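The regions described here had the highest read pileup in every TCF21 immunoprecipitation of chicken preadipocytes. TCF21 is a basic helix-loop-helix transcription factor. Such factors bind DNA as dimers, usually with a broadly expressed E-protein partner, at short E-box sequences, and in mouse Tcf21 is a marker of precursors of white fat. Preadipocytes are the fibroblast-like cells that become fat cells when lipids such as oleic acid are supplied. In chromatin immunoprecipitation followed by sequencing (ChIP-seq), the number of fragments stacked over a position reflects how often that position was recovered with the factor.

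The cells were adipose-derived chicken preadipocytes that stably overexpressed TCF21 from the lentiviral construct LV-TCF21, and all 6 samples carried that construct. Each sample had been given 300 µM oleic acid for 24 h. In 3 samples (TCF21_IP) chromatin was recovered with an anti-HA antibody, and 3 samples (input_DNA) were input DNA with no antibody. The promoter of the construct is not named in the labels, and neither are separate cultures, so an SD below may hold technical spread alone. Cells without the construct were not analysed here, so sites that need the overexpressed level cannot be told apart from others. The samples hold no immunoprecipitation with a control antibody or from cells without the construct. Regions recovered without binding of TCF21 therefore cannot be told apart either.

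Each immunoprecipitation gave 1 deposited peak list, with 59501, 55895 and 57436 peaks in lists 1, 2 and 3. Peaks of different lists that shared at least 1 bp were joined, and a region with a peak of every list is called a shared region. Of the 36270 shared regions on numbered chromosomes, Z and W, 987 had a highest pileup of 100 fragments or more in all 3 lists, which is 2.72%. They are called high-pileup regions below. The pileup chose them, and the width, summit, fold enrichment and significance come from the same peaks, so these values are given as a description with no test. The total read number of each sample is unknown, and pileups of different lists include any difference in depth. No source used here names the genome build of the positions. Most unplaced sequences have names that begin with AADN04, a prefix that limits which assemblies are possible but states no build, so regions carry no gene, promoter or sequence.

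The pileup of the 987 regions ran from 101 to 288 fragments in list 1, with a median of 147. In list 2 it ran from 100 to 272 with a median of 142, and in list 3 from 100 to 246 with a median of 124. Over all shared regions the medians were 23, 21 and 17 fragments. By the lowest of their 3 values, 506 regions (51.3%) lay between 100 and 124, 273 between 125 and 149, 178 between 150 and 199, and 30 (3.04%) reached 200 or more. Most of the set therefore sat close to its limit.

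The highest mean pileup was at chromosome 20, 13844835 to 13846272, with 288, 268 and 244 fragments in lists 1, 2 and 3, a mean of 267 ± 22.0 (SD, n = 3). The region at chromosome 24, 1267032 to 1267931, had 279, 272 and 246 fragments, a mean of 266 ± 17.4. Their order is not resolved, since the second was higher in lists 2 and 3. The region at chromosome 15, 11085752 to 11086936, had 263, 264 and 245 fragments. Chromosome 25 held a region at 1704415 to 1705535 with 273, 252 and 245 fragments. The region at chromosome 4, 35225978 to 35227300, had 271, 260 and 239. These 5 regions had 3 summits within 14 bp, and those on chromosomes 24, 15, 25 and 4 had them within 5 bp.

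A further region of chromosome 24, at 3882664 to 3884622, had 267, 251 and 244 fragments. It lay 163 bp from its nearest shared region. The region at chromosome 5, 23679717 to 23681279, had 262, 261 and 223 fragments and 6 shared regions within 10 kb, 1 of which was another high-pileup region. At chromosome 27, 4437114 to 4438347, the values were 256, 253 and 231. At chromosome 9, 19498068 to 19499058, they were 252, 252 and 229. The last of the 10, at chromosome 2, 1430247 to 1431219, had 240, 254 and 232 fragments. List 3 was the lowest in all 10 regions. Over the 10 regions list 1 ranged from 240 to 288 fragments, list 2 from 251 to 272 and list 3 from 223 to 246.

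**Figure D1:**
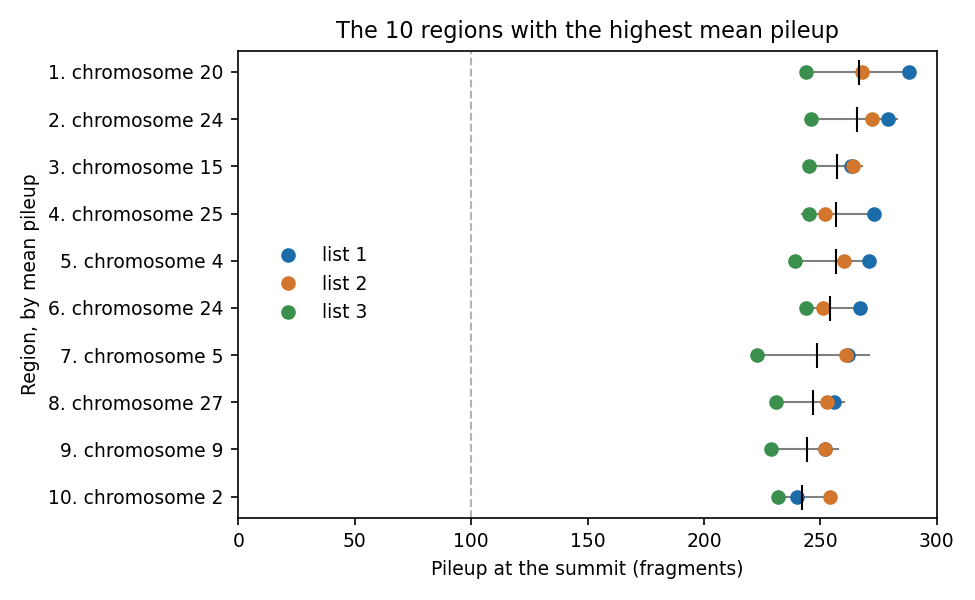
Pileup at the summit in fragments (horizontal axis) of the 10 regions with the highest mean, 1 row per region, with 1 point per list, a tick at the mean and a grey line of 1 SD to each side (n = 3). The dashed line marks the limit of 100 fragments, and every point lies between 223 and 288, with list 3 lowest in each row.

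At the limit, the regions just inside were at chromosome 1, 7064446 to 7065195 (104, 106 and 100 fragments), chromosome 1, 33508163 to 33508981 (108, 102 and 100), and chromosome 2, 139646124 to 139647028 (106, 104 and 100). Those just outside were at chromosome 18, 1074616 to 1075353 (142, 132 and 99 fragments), chromosome 28, 3090043 to 3091402 (140, 124 and 99), and chromosome 3, 19341812 to 19342682 (136, 126 and 99). List 3 alone kept the latter out, as it did for 113 of the 151 regions whose lowest value was 95 to 99. Other regions also had a lowest value of 100. The named regions had mean pileups of 103 inside and 120 to 124 outside. They are examples and do not give the usual contrast at the limit. Singly, the limit was reached by 4.80% of shared regions in list 1, 4.22% in list 2 and 2.79% in list 3.

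Shared regions that reached 100 in a pair of lists were compared with their value in the remaining list. Being shared, they had a peak in that list by definition, and the choice left out the height of that peak alone. Lists 2 and 3 both reached 100 at 996 regions, and in list 1 those regions had 88 to 288 fragments with a median of 146, with 987 (99.1%) at 100 or more. Lists 1 and 3 chose 998 regions, which had 86 to 272 fragments in list 2, 98.9% of them at 100 or more. Lists 1 and 2 chose 1377 regions, which had 63 to 246 fragments in list 3, where 71.7% reached 100 and the 390 that did not had a median of 90. The other shared regions had medians of 22, 20 and 17 fragments in lists 1, 2 and 3 by the same choices, and 95th percentiles of 82, 77 and 62. List 3 had lower pileups in general, with a median of 17 fragments over all shared regions against 23 in list 1 and 21 in list 2. A limit of 100 was therefore stricter in list 3, and the 3 shares do not compare agreement between lists. The regions share their libraries and carry no p-value.

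List 3 was the lowest at most regions, while the order of lists 1 and 2 varied. List 1 alone was highest at 614 of the 987 regions, list 2 at 336 and list 3 at 9, and list 3 alone was lowest at 859. The pileup of list 2 was a median of 0.969 times that of list 1 (interquartile range 0.916 to 1.02), and that of list 3 was 0.859 times (0.811 to 0.920). Over all shared regions the same medians were 0.923 and 0.778. The highest of the 3 values was at most 1.53 times the lowest, and over 1.5 times at 4 regions. Of these, chromosome 15, 6544061 to 6545848, had 161, 125 and 105 fragments. Chromosome 4, 58368629 to 58369617, had 190, 141 and 125, and chromosome 12, 419012 to 419935, had 154, 124 and 102. In these 3 regions list 1 was highest and list 3 lowest.

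**Figure D2:**
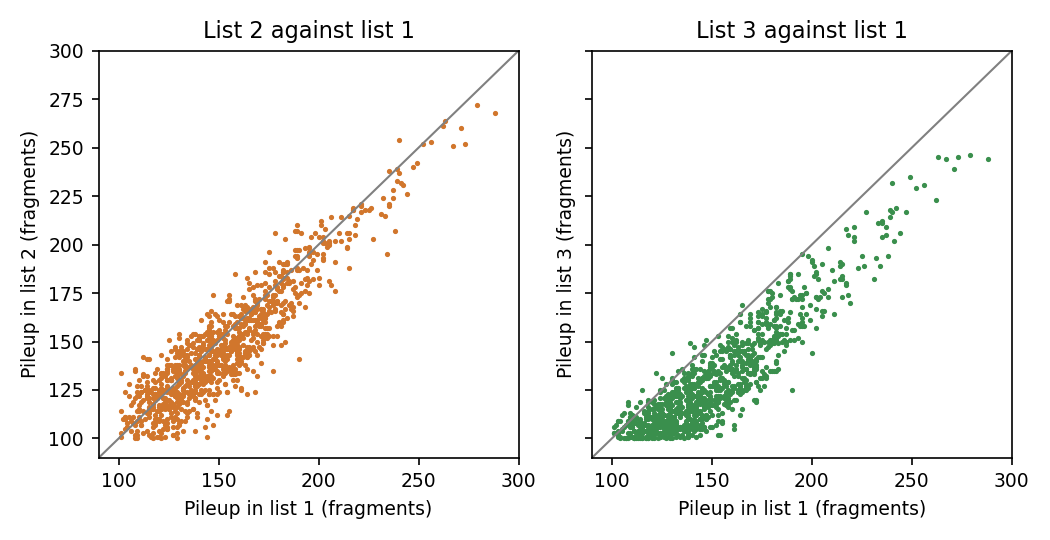
Pileup in fragments of the 987 high-pileup regions in list 1 (horizontal axes) against list 2 (left) and list 3 (right), 1 point per region, with a line of equal values. List 2 scatters about the line with a median ratio of 0.969, and list 3 lies mostly below it with a median ratio of 0.859.

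Within the set, the rank agreement between lists was higher by pileup than by fold enrichment. Spearman's rho of pileup was 0.874 between lists 1 and 2, 0.862 between lists 1 and 3, and 0.880 between lists 2 and 3, a mean of 0.872 ± 0.00919 (SD over pairs of lists). In shared regions whose lowest pileup was 50 to 99 the mean rho was 0.785, and over all shared regions it was 0.895, where the range of values is far wider. The 10 highest regions of any list shared 9 with those of each other list, and 8 were common to all 3. Of the 50 highest, 34 were common to all, and of the 200 highest, 158. No region was among the 247 highest in one list and among the 247 lowest in another, and a region's ranks among the 987 spanned a median of 148 places. By fold enrichment, in which the pileup is divided by the local control level after adding 1 to each, rho was 0.354 ± 0.00526 in the set, 0.404 ± 0.0254 in regions of 50 to 99 and 0.774 ± 0.00380 over all shared regions. By that measure 0 of the 10 highest of the set were common to all 3 lists. A set cut by pileup restricts the range of both measures. These values run across regions of the same 3 libraries and carry no p-value.

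The spread of pileup between the 3 lists was set beside that of separate Poisson counts. After scaling each list to its total over the 987 regions, the squared differences from the expected pileup, divided by it and by the 2 degrees of freedom, averaged 0.526, where independent counting gives 1. The value was 0.747 in regions of 50 to 99, 0.793 in regions of 20 to 49 and 0.789 below 20. Each pair of lists gave 0.468 to 0.556 in the high-pileup regions, and the lists were kept as 3 samples. Each range also requires a minimum in every list, which by itself narrows the spread. The pileup is the highest value per list and region, not a count at a fixed position. The value of 1 is therefore no benchmark for these ranges, and lower values do not show that the lists lay closer than separate counts. Whether the samples share material, or whether removal of duplicate reads capped high pileups, was not tested.

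Fold enrichment, as the authors' peak caller gave it, had a median of 40.1 in list 1, 41.0 in list 2 and 43.1 in list 3, a mean of 41.4 ± 1.52 (SD, n = 3). Regions of 50 to 99 had 24.2 ± 0.320 and all shared regions 7.35 ± 0.282. It reached 20 in all 3 lists at 936 of the 987 regions (94.8%), and 40 at 234 (23.7%). In regions of 50 to 99 these shares were 44.2% and 0.729%, and over all shared regions 7.14% and 0.714%. Fold enrichment has the pileup in its numerator, and pileup chose the set, so part of this difference is built in. The fold enrichment of a region had a median coefficient of variation of 20.5% over the lists, against 8.92% for its pileup. The local control level at the summits, called the input level here, was recovered from the pileup and the fold enrichment. It is not a direct count of input fragments. The input level had a rho of 0.195 ± 0.00667 between lists. A level within 1% of the lowest of a list is called the floor. It was at the floor in all 3 lists at 1 region and in at least 1 list at 16. In lists 1, 2 and 3, 0.507%, 0.912% and 0.507% of the high-pileup regions were at the floor. The same shares were 4.94%, 5.94% and 4.27% over all shared regions.

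The highest mean fold enrichment was at chromosome 18, 9937816 to 9939820, with 77.6, 112.6 and 83.8 in lists 1, 2 and 3 and a pileup of 237, 228 and 209 fragments. Chromosome 13, 17861663 to 17862609, had 99.6, 95.1 and 73.5 and a pileup of 193, 182 and 159. The region on chromosome 25 named above had 35.5, 124.4 and 98.1, so its fold enrichment differed between lists where its pileup hardly did. At the low end, 2 regions were under 10 in all 3 lists. Chromosome 1, 152858918 to 152860063, had a fold enrichment of 4.54, 5.06 and 7.83 with 118, 112 and 113 fragments, and chromosome 3, 95700707 to 95701981, had 7.05, 7.26 and 7.07 with 160, 155 and 150. Their input levels were 10.1 ± 1.57 and 10.9 ± 1.60 times the mean over autosomal peaks, where the median of the set was 1.24 ± 0.0479. That median was 1.11 ± 0.0871 in regions of 50 to 99 and 0.936 ± 0.0210 over all shared regions. The next lowest by fold enrichment, at chromosome 5, 54235537 to 54236538, had 24.3, 23.4 and 16.1, with 105, 122 and 112 fragments.

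High-pileup regions were wide. The joined region had a median width of 1058 bp (interquartile range 859 to 1355, lowest 546, highest 3868), against 817 bp in regions of 50 to 99 and 544 bp over all shared regions. The peak of a single list had a median width of 884, 890 and 840 bp. Although they were 2.72% of the shared regions, they held 5.08% of the covered bases, 1.16 of 22.9 Mb. The rho between width and mean pileup was 0.201 within the set, whose range of pileup is restricted, and 0.562 over all shared regions. Of the 987 widest shared regions, 200 (20.3%) were high-pileup regions.

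The widest, at chromosome 2, 9634783 to 9638650, spanned 3868 bp with 208, 176 and 173 fragments. It was 1 peak of 3863 bp in list 1, 3 peaks in list 2 and 2 in list 3. The next, at chromosome 20, 10224789 to 10228497, was 3709 bp wide with 164, 155 and 126 fragments. Chromosome 5, 13962209 to 13965818, was 3610 bp wide and had 1 peak in list 1 and 3 peaks in each of lists 2 and 3. Thus the widest 3 were split into different numbers of peaks by the lists. The narrowest were 546 bp wide, at chromosome 28, 3705751 to 3706296 (168, 124 and 126 fragments), and at chromosome 6, 16043263 to 16043808 (127, 136 and 107). They were followed by chromosome 6, 15198640 to 15199195, of 556 bp. In all, 833 regions (84.4%) held 1 peak of each list, against 88.3% of regions of 50 to 99 and 93.7% of all shared regions.

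The 3 lists placed the summit almost at the same base. The median distance between summits was 8 bp for lists 1 and 2, 9 bp for lists 1 and 3 and 8 bp for lists 2 and 3, a mean of 8.33 ± 0.577 bp (SD over pairs). The same mean was 11.3 ± 0.577 bp in regions of 50 to 99, 18.3 ± 0.577 bp in those of 20 to 49 and 35.0 ± 1.00 bp below 20. The outermost of the 3 summits were at most 10 bp apart at 341 regions (34.5%), at most 25 bp at 755 (76.5%) and at most 100 bp at 976 (98.9%). At 9 regions all summits fell on the same base. The highest of these were chromosome 11, 762708 to 763914 (summit 763164; 208, 191 and 198 fragments), chromosome 15, 10944155 to 10945088 (summit 10944554; 182, 186 and 168), and chromosome 2, 102550753 to 102553370 (summit 102551533; 164, 147 and 140).

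**Figure D3:**
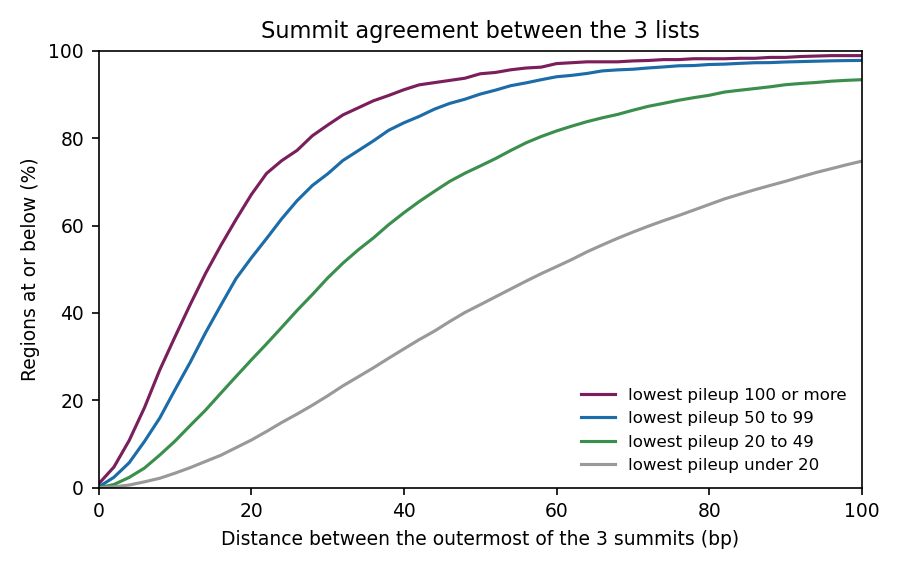
Share of regions (vertical axis, %) whose outermost summits lay within a given distance (horizontal axis, bp), by the lowest pileup of the region in the 3 lists. At 25 bp the curve of the 987 high-pileup regions was at 76.5%, that of regions of 50 to 99 at 63.8%, and that of regions under 20 at 15.9%.

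At the other 11 regions the summits lay over 100 bp apart. All 11 were wide, from 1277 bp upward with a median of 2076 bp, and in all of them 2 lists placed their summits within 50 bp of each other while the remaining list chose another place. That list was list 1 at 3 regions, list 2 at 4 and list 3 at 4. The largest distance, 1000 bp, was at chromosome 1, 60411418 to 60413689. Its summits were at 60412838 and 60412823 in lists 1 and 2 and at 60411838 in list 3, with 141, 133 and 126 fragments. At chromosome 19, 9713183 to 9715258, lists 1 and 3 had their summit at 9713710 and list 2 had it at 9714641. At chromosome 2, 47014360 to 47016169, list 1 had its summit 877 bp before that of list 2, with 149 and 151 fragments. In 2 of the 11 the list that stood apart had a further peak with its summit within 100 bp of the other lists' summits.

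Other shared regions often lay close by. Within 10 kb of 823 of the 987 regions (83.4%, exact 95% binomial interval 80.9% to 85.7%) there was another shared region, against 72.7% of all shared regions and 79.5% of those of 50 to 99. The interval covers counting error only. The median distance to the nearest shared region was 2170 bp, against 3785 bp over all. A high-pileup region had a mean of 2.32 neighbours within 10 kb and at most 11, and shared regions overall had 1.72. Windows of 100 kb with at least 10 shared regions held 38.8% of the high-pileup regions and 26.6% of all shared regions. At 5 high-pileup regions (0.507%) no other shared region lay within 100 kb, against 1.09% of all shared regions.

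**Figure D4:**
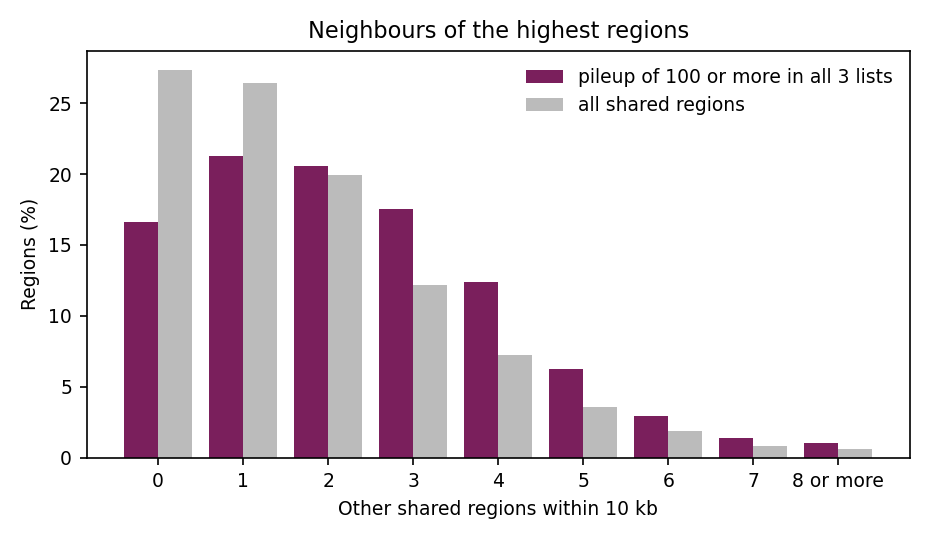
Share of regions (vertical axis, %) by the number of other shared regions within 10 kb (horizontal axis), for the 987 high-pileup regions and for all 36270 shared regions. No neighbour was found for 16.6% of the former and 27.3% of the latter, and from 2 neighbours upward the high-pileup bars are the taller ones.

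Within 10 kb of the 987 regions lay 2079 shared regions that were not high-pileup regions themselves. Their mean pileup had a median of 22.3 fragments (interquartile range 15 to 38.3), against 19.7 over all shared regions outside the set. The median was 20.3 over the 23458 regions outside the set with a neighbour within 10 kb but no high-pileup one. Another high-pileup region lay within 10 kb of 88 regions (8.92%), which formed 38 pairs and 4 groups of 3. For comparison, a high-pileup region lay within 10 kb of 5.97% of all shared regions and of 7.09% of those of 50 to 99.

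The closest pair was on chromosome 15, at 6981324 to 6981992 and 6982119 to 6983865, 126 bp apart at their edges and 1734 bp between summits. Its members had 127, 118 and 122 fragments and 157, 153 and 135 fragments. On chromosome 2, the regions at 61783545 to 61785462 (138, 144 and 134 fragments) and 61785596 to 61787107 (117, 130 and 111) were 133 bp apart. On chromosome 23, the regions at 4203265 to 4204296 (205, 181 and 163) and 4204485 to 4205902 (137, 136 and 114) were 188 bp apart. They belonged to the most compact of the 4 groups of 3, which spanned 4031 bp from 4203265 to 4207295, and its last region had 197, 182 and 164 fragments. A pair on chromosome 14 began at 2018955 and 2021313 and was 240 bp apart, and a pair on chromosome 2 began at 16356032 and 16357341 and was 360 bp apart. The other groups of 3 were at chromosome 1, 29745304 to 29752077, chromosome 2, 19927354 to 19946674, and chromosome 19, 5567865 to 5582612.

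In windows of 100 kb, high-pileup regions fell in 869 of the 7982 windows that held a shared region, 18 windows held 3 or more, and the most was 4, at chromosome 7, 600001 to 700000. The median distance to the nearest other high-pileup region was 185 kb (interquartile range 51.5 to 459 kb). The longest stretch between neighbouring high-pileup regions was 20.4 Mb on Z, from 32508757 to 52943254, and held 353 shared regions. On chromosome 2, 17.5 Mb from 77630421 to 95152036 held 345 shared regions and no high-pileup region. A further stretch of 16.1 Mb on Z, from 2137068 to 18205076, held 390 shared regions. Stretches before the first or after the last high-pileup region of a chromosome were not counted, and these can be longer. On Z the last high-pileup region ended at 56303343, where the span of Z was 82.1 Mb. On the whole of Z, 0.532% of shared regions were high-pileup regions, so the low share and the long stretches of Z are not separate observations.

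High-pileup regions were found on 29 of the 33 numbered or lettered chromosomes, and the 4 without one, chromosomes 16, 30, 32 and W, held only 34 shared regions. The 5 autosomes of 50 Mb or more, by the end of their last peak, held 520 of the 987 regions, or 0.855 per Mb, and 2.63% of their shared regions were high (exact 95% binomial interval 2.41% to 2.86%). The 6 autosomes of 20 to 50 Mb had 1.36 per Mb and 3.25% (2.85% to 3.70%), and the 13 autosomes of 5 to 20 Mb had 1.47 per Mb and 2.93% (2.55% to 3.35%). Per Mb, autosomes under 20 Mb held 1.72 times as many as those of 50 Mb or more, and per shared region 1.12 times as many. Most of the contrast per Mb was therefore that of shared regions in general.

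Single chromosomes differed more. Chromosome 23 had 18 high-pileup regions among 312 shared ones (5.77%, interval 3.45% to 8.96%), chromosome 27 had 11 of 216 (5.09%, 2.57% to 8.93%), chromosome 28 had 14 of 324 (4.32%, 2.38% to 7.14%) and chromosome 15 had 28 of 689 (4.06%, 2.72% to 5.82%). Chromosome 6 had 56 of 1465 (3.82%, 2.90% to 4.94%). Chromosome 13 had 12 of 777 (1.54%, upper bound 2.68%) and chromosome 14 had 13 of 763 (1.70%, 0.910% to 2.90%). The intervals of chromosomes 27, 28 and 14 include the overall 2.72%, and that of chromosome 15 has it at its lower edge. Chromosome Z had 9 of 1691 (0.532%, 0.244% to 1.01%). Of all high-pileup regions, 0.912% were on Z, which was 1.38% without list 3 and 1.56% with a limit of 80 fragments. The intervals cover counting error only and treat regions as independent. Chromosomes other than Z were chosen here after their values were seen. Their intervals therefore do not show that any of them differs from the overall share.

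Input levels differed between the same chromosomes. At the shared regions outside the set the level was 1.45 ± 0.0230 times the autosomal mean on chromosome 15, 0.883 ± 0.0111 times on chromosome 13, 0.909 ± 0.0252 times on chromosome 14 and 0.662 ± 0.00439 times on Z (SD, n = 3). Over the 25 autosomes with at least 200 shared regions, rho between the share of high-pileup regions and this level was 0.648. It was 0.869 with the median pileup of the shared regions outside the set, and −0.298 with chromosome span. Pileup chose the set, so the share and that median come from the same measure, and a high rho between them is partly built in. The rho values are descriptions, because the chromosomes share the same libraries. Chromosome 23, which had the highest share, had an input level of 1.08 ± 0.0259. Its shared regions outside the set had a median pileup of 22.3 fragments, against 19.7 over all chromosomes. Their median fold enrichment, 7.82, was the highest of any chromosome. The part of the input level in these shares was not tested. When 987 regions were taken by mean fold enrichment instead, 39 were on Z in place of 9 and 11 on chromosome 15 in place of 28, while chromosome 23 kept its number of 18. Fold enrichment divides by the input level, so a shift toward low-input chromosomes is built into that choice. The 2 sets shared 724 regions (73.4%), and of the 263 that entered by fold enrichment alone, 56 had the input level at its floor in at least 1 list.

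**Figure D5:**
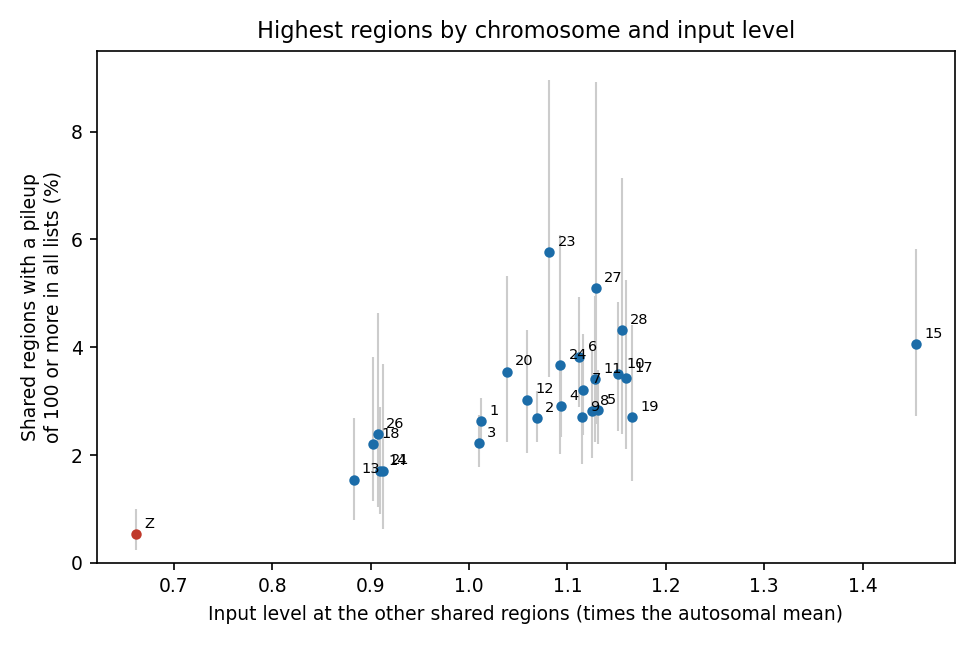
Share of the shared regions of a chromosome that were high-pileup regions (vertical axis, %, with exact 95% binomial intervals) against the input level at the other shared regions (horizontal axis, times the autosomal mean), for Z and the 25 autosomes with at least 200 shared regions. Z lies lowest on both axes, at 0.662 and 0.532%, and chromosome 15 has the highest input level, 1.45.

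Sides of chromosomes 2, 3 and 7 were set apart at boundaries placed with earlier results on the input level known. The difference in input between sides is therefore no finding. Pileup is not divided by that level, so the shares by pileup are not independent of that choice either. Fold enrichment divides by it, so a shift toward the low-input side is built into the shares by fold enrichment. The intervals cover counting error only, and the part of the input level was not tested. On chromosome 2, 81 of 2006 shared regions up to 50 Mb were high-pileup regions (4.04%, interval 3.22% to 4.99%), and 43 of 2621 beyond (1.64%, 1.19% to 2.20%). The input level outside the set was 1.36 ± 0.00866 times the autosomal mean on the left and 0.855 ± 0.00172 times on the right. Chosen by fold enrichment, 2.29% and 2.59% of the shared regions of these sides would enter. On chromosome 3 the shares were 2.75% (2.13% to 3.48%) up to 60 Mb and 1.31% (0.775% to 2.06%) beyond, with input levels of 1.12 ± 0.00319 and 0.828 ± 0.0116, and by fold enrichment 2.20% and 2.32%. On chromosome 7 they were 3.42% up to 30 Mb and 1.69% beyond, the latter from 3 of 177 regions with an interval of 0.351% to 4.87% that includes the former, with input levels of 1.16 ± 0.00751 and 0.799 ± 0.0231, and by fold enrichment 3.19% and 2.82%.

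The 9 high-pileup regions of Z, a sex chromosome of birds, had mean pileups of 114 to 177 fragments. The highest, at 2135586 to 2137067, had 185, 181 and 166 fragments. The region at 1037476 to 1039064 had 162, 167 and 150, and that at 18205077 to 18205926 had 177, 135 and 131, with the input level at its floor in every list. The regions at 55772436 to 55773530 (158, 136 and 119 fragments) and 21217144 to 21218241 (147, 123 and 104) followed. The mean fold enrichment of these 5 was 71.9 ± 21.8, 70.8 ± 10.7, 79.2 ± 10.8, 49.1 ± 13.1 and 52.7 ± 9.79 (SD, n = 3), above the median of 41.7 over the whole set. Their mean input levels were 0.816, 0.689, 0.449, 0.982 and 0.738 times the autosomal mean, where the median of the set was 1.24. Fold enrichment divides by that level, so higher values at low input are built in. On chromosome W none of the 13 shared regions was high.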

How the data were processed

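The processed data were 3 peak lists, 1 per TCF21 immunoprecipitation as their peak names show. The number in those names was not matched to a sample. Tools listed in the submitters' processing notes, with no role, were MACS2, HOMER, bedtools, STAR 2.5.3a and Trimmomatic 0.36. Column names were those MACS2 writes, per the file headers. Pileup is a deposited signal in fragments, whole in 100% of rows. Fold enrichment is a deposited ratio of pileup to the local control level. Significance was deposited as −log10 of the p-value and of the q-value. No source used here gives the calling threshold, the control library or the depth.

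From these, Python 3.11.15 with pandas 2.3.3 and scipy 1.17.1 joined peaks sharing at least 1 bp and took the peak of highest pileup per list and region. Input level was (pileup + 1) / fold enrichment − 1, divided by its mean over the autosomal peaks of the list. A value within 1% of a list's lowest counted as at the floor. Neighbour distances run edge to edge. The joining, selection, summit and neighbour steps were tested on simulated data. No p-value was computed. Members, lists and boundaries were chosen with earlier results of these data known. Regions were named by a fixed rule: highest mean pileup, just inside and outside the limit, and extremes of width, summit distance, list ratio and fold enrichment, closest pairs and Z. The groups of 3, the 100-kb window and the longest stretches were chosen after their values were seen, and single chromosomes were chosen in the same way.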

Additional observations from a re-analysis of the deposited data

Results flagged for a closer look

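Unplaced sequences lay outside the choice of regions, and 19 of their 1150 shared regions (1.65%) also had a pileup of 100 or more in all 3 lists. They drew attention as a signal in data that the comparisons above did not use. Of the 19, 3 had a fold enrichment under 10 in every list, against 2 of the 987 regions. The 19 regions lay on 18 sequences, and the highest had 237, 230 and 185 fragments in lists 1, 2 and 3.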

How the results depend on the processing

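The number of high-pileup regions, 987, was 941 with a reciprocal overlap of 50%, 978 with summits within 100 bp and 987 with a q-value of at most 1e-05. It was 1797 with a limit of 80 fragments and 208 with 150, and 997 to 1377 when each list was left out in turn, the highest without list 3. Under the limits of 80 and 150 the summit distance was 9 and 7.33 bp, the median width 1002 and 1156 bp, and the median fold enrichment 35.7 and 53.2. The limit of 150 also gave a rank agreement of 0.805 and a density on autosomes under 20 Mb of 1.45 times that on autosomes of 50 Mb or more. Leaving out each list gave a rank agreement of 0.863 to 0.881, summit distances of 8 to 9 bp, widths of 976.5 to 985 bp (fewer peaks enter each region), fold enrichments of 38.0 to 42.0, 85.3% to 85.9% of regions with a neighbour within 10 kb, a density ratio of 1.70 to 1.79 and 0.902% to 1.38% of regions on Z. The rank agreement of 0.872 was 0.354 with fold enrichment and 0.710 with −log10 p. The share with a neighbour, 83.4%, was 80.8% with summits within 100 bp, 71.5% within 5 kb and 92.7% within 20 kb. With high-pileup regions alone as neighbours it was 8.92%. Over all shared regions the share was 56.9% within 5 kb and 85.9% within 20 kb. In regions of 50 to 99 these shares were 64.4% and 90.8%. With a q-value of at most 1e-05, where fewer regions enter, the share of the set was 74.4%, against 62.1% of all 23085 shared regions. By mean −log10 p, 987 regions had a median fold enrichment of 43.1 and 1.82% on Z, and by mean fold enrichment 3.95% were on Z, against 0.912% by pileup. The density ratio of 1.72 per Mb was 1.12 per shared region. The cause of these changes was not tested unless stated. Leaving out the 2 regions of high input and choosing by mean fold enrichment were settings chosen after seeing the data, and leaving out the 2 regions moved none of the values recomputed (number, rank agreement, summit distance, width, fold enrichment, neighbours, density ratio and share on Z) beyond its spread or counting interval. No paired analysis was possible because no label ties a list to a replicate number. E-boxes and promoters were not analysed, for want of a genome of the same build. Depth is unknown and limits how far pileups of different lists can be compared.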

Other observations

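Summits of high-pileup regions lay near the middle of the region, at a median of 0.495 of its length (interquartile range 0.413 to 0.580), and at 53 regions (5.37%) in the outer 0.25 of the length at either end, against 6.23% of all shared regions. On the 11 autosomes of at least 20 Mb, 31 of 747 high-pileup regions (4.15%) lay within 1 Mb of a chromosome's end, against 3.34% of all shared regions there. No difference was tested.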
